A study of Arabidopsis thaliana with 12 samples.

Results

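The report concerns nuclear CpG cytosines with excess read depth in leaf DNA of Arabidopsis thaliana, that is, cytosines covered by more than 190 reads (methylated plus unmethylated calls) in a table pooled over libraries. The cytosines were chosen by that depth, so depth is given below as a description and is not tested. The first 10000 bp of chromosome 2 and chromosome 3 from 14.193 to 14.205 Mb, the intervals that hold the annotated nuclear rRNA genes, were left out. The rule found 3633 cytosines, 0.0665% of the 5462775 covered nuclear cytosines outside these intervals, and cytosines within 500 bp of each other were joined into 171 regions.

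The series compares leaves of ecotype Col-0 (written Col-O in the labels) under the treatments SA-CNPs, pathogen and Control, with 4 libraries each, a pair of libraries from each of 2 plant samples. SA-CNPs are chitosan nanoparticles loaded with salicylic acid, the pathogen was the powdery mildew Podosphaera xanthii, and the control plants received neither. Per the methods of the study the plants were seedlings grown on plates and collected without roots. The libraries were made by enzymatic methyl-seq, in which unmethylated cytosines are converted and a C that is still read at a CpG counts as methylated. Which libraries were merged into the only table analysed here is not given, so it was read as 1 pooled sample of unknown condition, without replicates and without a test between treatments, and all intervals below are 95% Wilson intervals that cover counting error only.

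Much of a plant genome consists of sequences present in many near-identical copies, such as the satellite arrays of the centromeres, the tandem rRNA genes and the transposons of the DNA around the centromeres. An assembled reference holds fewer copies of such arrays than the plant does, and reads of all copies can then pile up on the few that the reference has. The methylation level at such a place is a mean over many copies. CpG methylation in plants is copied to new strands by the maintenance methyltransferase MET1, and in repeats and transposons it is usually dense, whereas genes carry it in the gene body or not at all.

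The data fell into a small number of deep piles. The table listed 5567714 nuclear cytosines, of which 5465516 were covered, by at least 5 reads and at a median of 58 reads. The cytosines with excess depth had a median of 418 reads (quartiles 258 and 1190) and a maximum of 59660, and they held 1.83% of all nuclear calls. The region with the most calls held 21.2% of the calls at these cytosines, the first 3 regions held 53.3% and the first 10 held 81.0%. At the other end, 27 regions consisted of a single cytosine, and 75 regions had 10 or more members and 3274 of the 3633 cytosines. Just inside the threshold, 91 cytosines had 191 to 195 reads and a level of 68.8%, and just outside it 121 cytosines had 186 to 190 reads and a level of 72.8%. Both cytosines of a CpG, on opposite strands, were members at 1355 CpGs, which took up 74.6% of the members. Raising the threshold to 250 reads or lowering it to 150 reads gave 2794 or 4731 cytosines.

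To show what kind of sequence the piles consist of, the letters that the table itself fixes are printed for the regions on which the results turn. The table gives each CpG and, from the trinucleotide on either strand, the base before and after it. These bases are in capitals below, every other base is n, all stretches read 5′ to 3′ on the plus strand of TAIR10.1, and no genome sequence was used. The first 3 stretches are consecutive units of 178 bp in the region with the highest median depth, at chr3:13589952-13590129, chr3:13590130-13590307 and chr3:13590308-13590485.
chr3 unit 1: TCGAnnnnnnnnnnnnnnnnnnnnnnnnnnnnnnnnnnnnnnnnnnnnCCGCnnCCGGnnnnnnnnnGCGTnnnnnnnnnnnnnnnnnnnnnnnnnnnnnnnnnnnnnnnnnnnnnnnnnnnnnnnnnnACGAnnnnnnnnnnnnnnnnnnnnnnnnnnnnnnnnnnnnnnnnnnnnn
chr3 unit 2: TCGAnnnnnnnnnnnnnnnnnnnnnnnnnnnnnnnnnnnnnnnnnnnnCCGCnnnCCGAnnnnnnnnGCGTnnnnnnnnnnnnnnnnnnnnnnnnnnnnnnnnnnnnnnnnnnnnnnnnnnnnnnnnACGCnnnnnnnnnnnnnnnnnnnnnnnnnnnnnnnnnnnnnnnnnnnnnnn
chr3 unit 3: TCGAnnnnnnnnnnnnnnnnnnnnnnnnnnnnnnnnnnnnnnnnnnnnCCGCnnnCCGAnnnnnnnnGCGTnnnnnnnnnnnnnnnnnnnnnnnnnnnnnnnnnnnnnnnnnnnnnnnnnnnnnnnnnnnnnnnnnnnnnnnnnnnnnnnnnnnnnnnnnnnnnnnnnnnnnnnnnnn
The site TCGA at the start, the site CCGC and the site GCGT stood at the same offsets in all 3 units. Units 2 and 3 had the same base at all 16 positions fixed in both, and units 1 and 2 had the same base at 15 of 17. The first 200 bp of pairs of units from a region of chromosome 4 (chr4:3054572-3054771 and chr4:3055070-3055269, 498 bp apart) and from the largest region of chromosome 5 (chr5:11184666-11184865 and chr5:11185168-11185367, 502 bp apart) were chosen because their CpGs lay 1 unit apart almost without exception.
chr4 unit 1: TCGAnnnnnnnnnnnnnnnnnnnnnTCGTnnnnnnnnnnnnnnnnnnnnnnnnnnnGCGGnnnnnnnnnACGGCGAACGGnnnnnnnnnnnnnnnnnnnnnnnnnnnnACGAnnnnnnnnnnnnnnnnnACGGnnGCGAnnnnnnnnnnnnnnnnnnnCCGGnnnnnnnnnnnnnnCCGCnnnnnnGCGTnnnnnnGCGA
chr4 unit 2: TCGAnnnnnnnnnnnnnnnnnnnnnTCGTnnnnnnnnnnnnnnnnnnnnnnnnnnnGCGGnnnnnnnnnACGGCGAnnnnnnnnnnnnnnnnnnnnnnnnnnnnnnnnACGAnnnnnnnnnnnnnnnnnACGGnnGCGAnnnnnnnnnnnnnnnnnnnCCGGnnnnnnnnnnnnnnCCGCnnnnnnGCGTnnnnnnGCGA
chr5 unit 1: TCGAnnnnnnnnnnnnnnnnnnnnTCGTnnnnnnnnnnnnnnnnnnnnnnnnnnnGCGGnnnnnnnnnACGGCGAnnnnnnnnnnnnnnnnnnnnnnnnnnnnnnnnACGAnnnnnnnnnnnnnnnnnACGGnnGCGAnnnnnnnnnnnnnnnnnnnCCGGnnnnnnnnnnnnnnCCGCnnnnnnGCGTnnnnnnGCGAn
chr5 unit 2: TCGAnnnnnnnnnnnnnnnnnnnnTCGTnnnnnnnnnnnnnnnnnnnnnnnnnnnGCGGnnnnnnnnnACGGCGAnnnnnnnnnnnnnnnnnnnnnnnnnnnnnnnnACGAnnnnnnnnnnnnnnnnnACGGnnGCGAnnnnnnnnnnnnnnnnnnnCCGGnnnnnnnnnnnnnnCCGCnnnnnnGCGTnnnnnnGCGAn
The 2 units of chromosome 5 were identical in all 47 fixed letters, and the 2 units of chromosome 4 agreed at all 47 positions fixed in both. Between the chromosomes, chr4 unit 2 shifted by 1 bp, the best of the shifts from -3 to 3 bp, shared 43 of 46 fixed letters with chr5 unit 1. A repeat with nearly the same CpGs thus lay in excess depth on both chromosomes. The last pair shows a region on the arm of chromosome 2 (chr2:7190989-7191228) beside its match in the left-out interval of chromosome 3 (chr3:14196943-14197182).
chr2 region: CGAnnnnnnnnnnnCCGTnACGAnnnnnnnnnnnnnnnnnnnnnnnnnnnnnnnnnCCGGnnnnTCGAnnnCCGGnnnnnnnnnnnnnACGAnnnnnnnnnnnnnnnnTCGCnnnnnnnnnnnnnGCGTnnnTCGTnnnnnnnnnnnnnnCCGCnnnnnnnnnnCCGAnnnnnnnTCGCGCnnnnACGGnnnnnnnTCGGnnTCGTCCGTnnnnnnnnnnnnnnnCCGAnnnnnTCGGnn
left-out match: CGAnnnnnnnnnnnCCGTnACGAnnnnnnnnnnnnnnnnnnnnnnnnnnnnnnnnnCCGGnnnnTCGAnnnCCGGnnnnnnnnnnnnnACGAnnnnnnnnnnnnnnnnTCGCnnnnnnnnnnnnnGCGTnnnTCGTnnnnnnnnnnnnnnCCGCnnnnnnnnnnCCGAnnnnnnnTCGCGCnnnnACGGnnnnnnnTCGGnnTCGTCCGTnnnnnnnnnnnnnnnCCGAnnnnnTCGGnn
All 77 fixed letters were the same in this pair. The printed stretches were set beside each other by their CpG spacing, so the C and G of aligned CpGs agreed by that choice. Only the bases beside these CpGs were free to differ.

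Most of the regions lay in gene-poor DNA. The gene-poor block of a chromosome was taken as its longest run of 100 kb windows with under 20% of their bases in protein-coding genes, which gave blocks of 3.5, 1.9, 3.8, 2.3 and 3.7 Mb on chromosomes 1 to 5. Of the 171 regions, 143 lay in these blocks, with 3271 of the 3633 cytosines or 90.04%, against 13.1% of all nuclear CpG cytosines. Chromosome 4 had 48 regions and 899 cytosines, chromosome 5 had 33 regions and 956 cytosines, chromosome 2 had 25 regions and 819 cytosines, chromosome 3 had 32 regions and 642 cytosines, and chromosome 1 had 33 regions and 317 cytosines. Joined over gaps of up to 50 kb, the regions formed 41 neighbourhoods.

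**Figure D1:**
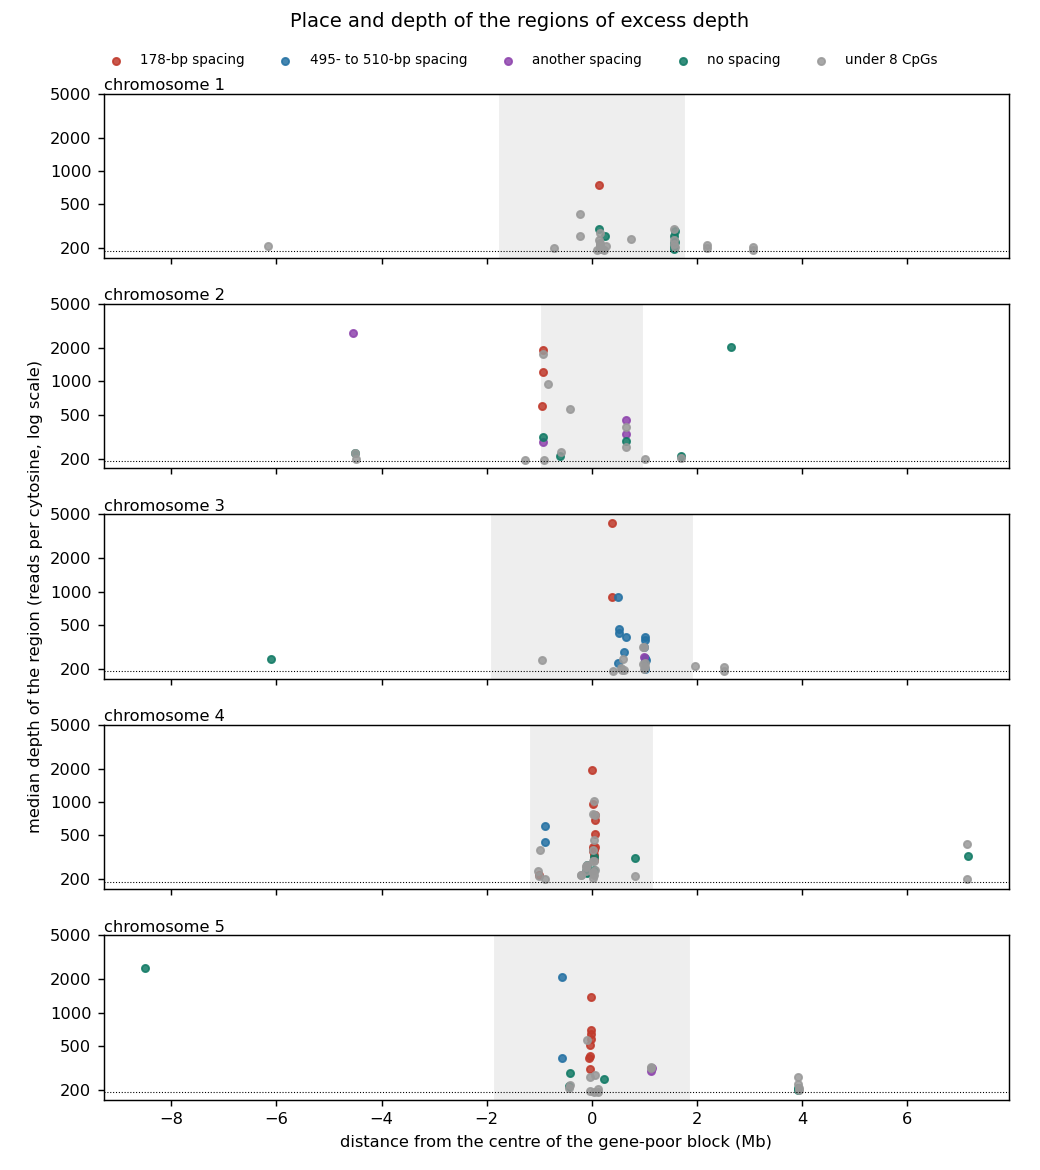
Median depth of each of the 171 regions (reads per cytosine, log scale) against the distance of the region from the centre of the gene-poor block of its chromosome (Mb), with the block in grey, the threshold of 190 reads dotted and colours for the distance at which CpGs recurred. Most regions, 143 of 171, lie in the grey blocks, and the deepest region, with a median of 4201 reads, lies in that of chromosome 3.

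Few of the regions were genes. Any annotated locus was overlapped by 52 regions, and 26.3% of the cytosines with excess depth lay inside a locus, against 70.9% of all nuclear CpG cytosines. Protein-coding genes were overlapped by 18 regions and held 17.0% of the cytosines, against 59.1% of all nuclear CpG cytosines. Pseudogenes, the class that holds most transposons in this annotation, were overlapped by 31 regions and held 8.26%, against 10.5%. No region overlapped an annotated rRNA, tRNA, snRNA, snoRNA or long noncoding RNA gene. The 4 nuclear rRNA genes of the annotation all lie in the left-out intervals. Of all nuclear CpG cytosines, 1.81% lay in long noncoding RNA genes, 0.127% in tRNA genes and 0.0457% in snRNA or snoRNA genes. Other RNA loci were overlapped by 4 regions and held 1.24% of the cytosines, against 0.650% of all nuclear CpG cytosines. Among these loci was the microRNA gene MIR854b (named after its values were seen), in a region of 42 cytosines at 86.4% on chromosome 5 (chr5:11323969-11324643). None of the runs of 11 CpGs matched the chloroplast or the mitochondrion, so no copy of organelle DNA was found in this way. Only 66 of the 171 regions were long enough to hold such a run, so the others could not be examined.

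In level over reads, the cytosines with excess depth as a whole were nearer to the gene-poor blocks than to the whole genome. Their level over reads was 72.3% (72.3% to 72.4%), against 25.2% at the other covered nuclear cytosines and 79.2% at the other covered cytosines of the gene-poor blocks, which had a median depth of 51 reads. Of the 3633 cytosines, 2354 or 64.8% had a level above 75%, against 27.6% of all covered nuclear cytosines, and 258 or 7.10% had a level below 25%, against 68.6%. Intermediate levels, from 25% to 75%, were found at 1021 or 28.1% of the cytosines with excess depth, against 3.81% of all covered nuclear cytosines and 6.54% of the other cytosines in gene-poor blocks. The share at intermediate levels was higher in each deeper bin up to 43.2% at 1001 to 5000 reads, and it was 22.4% above 5000 reads. The numbers were 138 of 839 cytosines at 191 to 250 reads, 298 of 1192 at 251 to 500, 207 of 594 at 501 to 1000, 316 of 731 at 1001 to 5000 and 62 of 277 above 5000 reads. The part of depth in these shares was not tested. Inside the gene-poor blocks the level was 73.5% over 3271 cytosines, against 79.2% at the other covered cytosines there. Outside the blocks it was 61.95% over 362 cytosines, against 18.4% at the other covered cytosines there. The region chr2:10034-10358 held 54.0% of the calls outside the blocks, and without it, a comparison added once the values were known, the level there was 40.3% over 294 cytosines. The cytosines' own levels outside the blocks had a mean of 45.3% and a median of 44.8%.

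**Figure D2:**
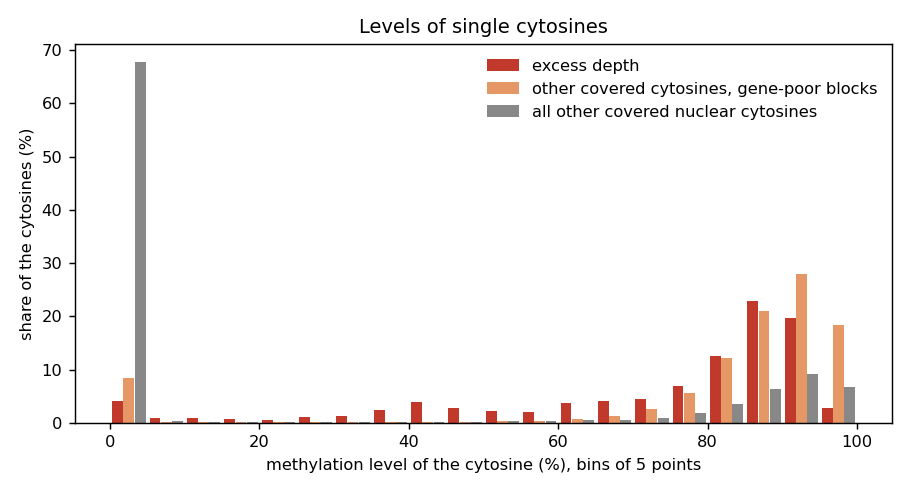
Share of cytosines (%) in bins of 5 points of methylation level, for the 3633 cytosines with excess depth, for the other covered cytosines of the gene-poor blocks and for all other covered nuclear cytosines. Of the cytosines with excess depth 28.1% lie from 25% to 75%, against 6.54% of the other cytosines of the gene-poor blocks.

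Tandem arrays were recognised from CpGs that recur at a fixed distance, a measure that uses neither depth nor level. For each distance from 100 to 1000 bp, the share of a region's CpGs with another CpG exactly that far away was counted. Of the 42 regions with at least 20 CpGs, 31 had 50% or more of their CpGs at 1 distance, against 2.71% of stretches of 20 CpGs elsewhere in the nuclear genome. At 178 bp, the most frequent best distance, 17 of the 42 regions had at least 40% of their CpGs, against 0.185% of such stretches. At a distance of 495 to 510 bp, 10 of the 42 had at least 40%, against 0.439%. Of the stretches elsewhere that reached 40%, 151 of 257 at 178 bp and 319 of 610 at 495 to 510 bp lay in gene-poor blocks. With at least 8 CpGs in place of 20, 27 regions fell under 178 bp and 17 under 495 to 510 bp, and 7 regions with at least 20 CpGs had another distance. A further 29 regions with 8 or more CpGs fell in none of these classes, some of them with fewer than 20 CpGs and so too few for the class of other distances, and 91 regions had fewer than 8 CpGs. The classes were set after the data had been seen.

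**Figure D3:**
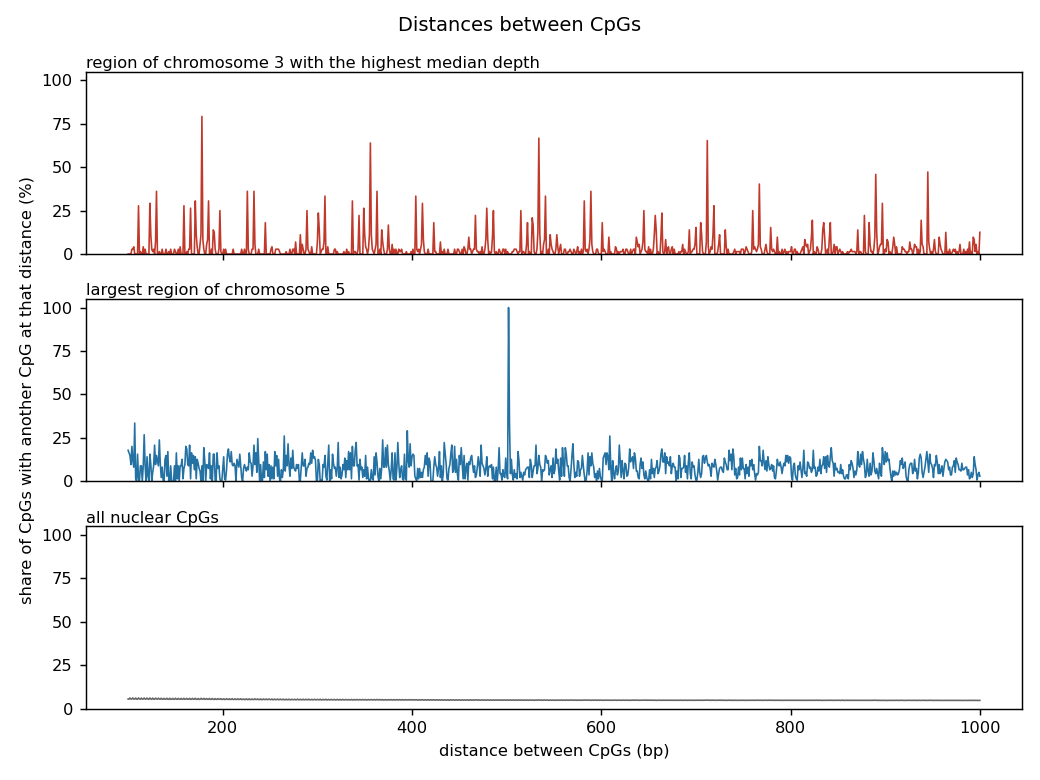
Share of CpGs (%) with another CpG at each distance from 100 to 1000 bp, for the region of chromosome 3 with the highest median depth, the largest region of chromosome 5 and all nuclear CpGs. The chromosome 3 region peaks at 178 bp (79.2%) and again at 356 bp (63.9%), the chromosome 5 region has a single peak of 100% at 502 bp, and all nuclear CpGs stay at 5.54% and 4.95% at 178 and 502 bp.

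The 178-bp arrays were the largest class. Its 27 regions lay on all 5 chromosomes, every one of them in a gene-poor block, and held 1600 cytosines or 44.0% of all members. The unit length and the place are those for which the centromere satellite of Arabidopsis is known, but the identity of the repeat was not tested, since no genome sequence was used here. Their level over reads was 68.2% (68.1% to 68.2%), and single regions ranged from 60.9% to 81.1% with a median of 71.0%. In 24 of the 27 regions the level was lower than that of the covered cytosines within 2000 bp on either side, with a median difference of -10.3 points (range -23.2 to 4.11), and those flanks had a median level of 78.5% and a median depth of 53 reads. CpGs that lay 178 bp apart had the same letters around them in 407 of 457 pairs or 89.1% in the 17 regions with 20 or more CpGs, against 10.5% to 30.8% of all pairs of CpGs within the same regions.

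The median depth of the 178-bp regions ranged from 219.5 to 4201 reads. The region chr3:13588830-13592501 had 141 members with 276 to 48736 reads, a median of 4201 and a level of 72.1%, against 86.0% in its flanks, and the nearest locus, the pseudogene AT3G33055, lay 4856 bp away. The region chr4:3950582-3955977, with 165 members, reached the highest depth of all, 59660 reads, at a median of 1950 reads and a level of 63.8%, against 87.0% in its flanks. It overlapped the edge of the pseudogene AT4G06700, which had 4 of the members and a level of 89.3% at its other cytosines. The region with the most members, 237, was chr2:3615051-3623867, with a median of 1219 reads and a level of 62.0%, against 75.9% in its flanks. It covered much of AT2G07981 and AT2G08986, both annotated as protein-coding, and AT2G08986 continued into the region chr2:3625227-3627487, which had a median of 1901 reads and a level of 65.8%. Of the 296 CpG cytosines of AT2G08986, 214 were members. On chromosome 1, the region chr1:15082071-15085973 had 158 members, a median of 751 reads and a level of 72.7%, against 88.8% in its flanks, and the protein-coding locus AT1G40104 held 154 of these members among its 156 CpG cytosines. In this region 86.6% of the CpGs had another CpG 178 bp away, against 58.2% in chr2:3615051-3623867 and 77.5% in chr2:3625227-3627487.

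On chromosomes 4 and 5 the 178-bp regions formed chains. The 8 regions of chromosome 5 lay between 11702156 and 11736225 with 446 cytosines. The largest of them, chr5:11726063-11729805, had 127 members at 75.8%, against 71.7% in its flanks, chr5:11702156-11705662 had 103 members at 71.6%, against 81.2%, and chr5:11730385-11733908 had 89 members at 68.9%, against 79.4%. The pseudogenes AT5G31804, AT5G31770 and AT5G31821, in this order, were the loci nearest to these regions. In chr5:11702156-11705662 the distance that held most CpGs was 879 bp, with 79.3% of them. The 13 regions of chromosome 4 held 467 cytosines, and the one lying apart from the others, chr4:2953515-2954232, had the highest level of the class, 81.1%, and the lowest median depth, 219.5 reads.

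Within the 178-bp regions, levels differed between sites with different letters around the CpG, and the part of the letters was not separated from that of the position in the unit. Sites are written with the base before and after the CpG, and a site and its reverse complement are counted together, over CpGs with both cytosines among the members. The site TCGA, the most frequent with 224 of 689 CpGs, had a level of 46.0% (45.95% to 46.13%). The site CCGC had a level of 88.3% over 175 CpGs, CCGA had 78.2% over 95 CpGs, ACGC had 80.8% over 65 CpGs and CCGG had 79.1% over 51 CpGs. Low levels were also found at ACGG, with 43.5% over 55 CpGs, and at ACGA, with 23.6% over 18 CpGs.

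In the printed units of chromosome 3, the site TCGA had levels of 39.6%, 46.7% and 41.95% in units 1 to 3, at 5098, 1226 and 8142.5 reads per cytosine. The site CCGC had 90.9%, 86.5% and 84.8%, and the site GCGT had 87.1%, 85.6% and 84.95%. The last CpG was ACGA with 10.2% in unit 1 and ACGC with 7.83% in unit 2, and unit 3 had no CpG there. In unit 2 the same site, read as GCGT at offset 69 and as its reverse complement ACGC at offset 129, thus had levels of 85.6% and 7.83%.

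By region, TCGA was lower than the other CpGs in 18 of the 20 regions of this class with at least 3 of each, by a median of -18.3 points (range -47.7 to 7.1). The difference was -47.7 points in chr3:13588830-13592501 (37.5% at 16 TCGA sites, against 85.1% at 53 others) and -44.8 points in chr1:15082071-15085973 (40.3% at 19, against 85.1% at 57). It was -31.5 points in chr4:3950582-3955977 (43.2% at 24, against 74.7% at 53) and -14.7 points in chr5:11726063-11729805 (67.7% at 28, against 82.3% at 34). The 2 exceptions were both on chromosome 4, chr4:3977431-3980575 with 72.4% at 8 TCGA sites, against 65.3% at 13 others, and chr4:3982355-3983729 with 72.4% at 6, against 71.8% at 8.

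DNA of ordinary depth showed a smaller difference. Stretches of 20 CpGs with at least 40% of their CpGs at 178 bp, in the gene-poor blocks and outside the regions, had a level of 81.0% at 220 TCGA sites and of 85.4% at 492 CCGC sites, with a median depth of 54 reads on the plus strand. Over all of the gene-poor blocks outside the regions TCGA had a level of 82.3% and CCGC of 83.4%. Those stretches were made up of other sites than the 178-bp regions. TCGA was 32.5% of the CpGs in the regions and 8.31% in the stretches, and ACGG was 7.98% and 22.1%. The comparison by letters was made after the data had been seen, and the parts of depth and of this different make-up in it were not tested. The strands of a CpG differed by more than 20 points at 41 of the 689 CpGs of the 178-bp regions or 5.95%, against 1.48% of 1148 CpGs outside the regions with at least 100 reads on both strands.

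The second class had CpGs 495 to 510 bp apart. Its 17 regions lay on chromosomes 3, 4 and 5 only, all in gene-poor blocks, and held 751 cytosines. These are the chromosomes on which the tandem 5S rRNA genes of Arabidopsis are known to lie, but the annotation used here names no 5S rRNA gene at the regions and the identity was not tested. The level over reads was 86.8% (86.8% to 86.9%), with single regions between 73.0% and 90.2% and a median of 87.8%. Levels were higher than in the flanks in 9 regions and lower in 8, by a median of 0.179 points (range -15.0 to 18.4). Intermediate levels were found at 5.73% of the cytosines, against 42.3% in the 178-bp regions. The site TCGA had 81.5% over 25 CpGs, and the other sites with at least 10 CpGs ranged from 82.7% for GCGA to 90.7% for CCGA. CpGs 1 unit apart had the same letters in 316 of 336 pairs or 94.0%, against 6.06% to 10.8% of all pairs within a region.

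The largest region of this class, chr5:11184635-11187619, had 228 members, a median of 2085.5 reads and a level of 86.8%, against 78.5% in its flanks. All of its CpGs had another CpG at a distance of 502 bp. It lay 121 bp from the pseudogene AT5G29550. Its neighbour chr5:11188209-11188741 had 43 members at 89.2%, against 70.8% in the flanks. On chromosome 4, chr4:3054379-3056771 had 122 members, a median of 610.5 reads, up to 5828 reads, and a level of 87.2%, against 84.3%, and the nearest locus was AT4G05175, annotated as a miscellaneous RNA. On chromosome 3 the 13 regions lay on either side of the left-out rRNA interval and further upstream, between 13705688 and 14223791. The largest, chr3:14206563-14208860, had 108 members at 86.0%, against 70.7% in its flanks, and lay 2355 bp from AT3G06365, a miscellaneous RNA in the left-out interval.

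The depth within such an array was uneven although the fixed letters were the same. In chr5:11184635-11187619, the 2 printed units differed in depth at the same offsets, with 318.5 reads per cytosine in unit 1 and 6719 reads in unit 2 at the first CpG, and 1298 reads in unit 1 and 274 reads in unit 2 at the last. The levels at the 12 CpGs differed between these units by a median of 3.34 points and at most 4.93 points. At the first CpG, TCGA, they were the lowest of either unit, 63.3% and 66.7%. The units of chromosome 4 differed in level by a median of 1.41 points and at most 3.19 points over 12 CpGs. CpGs 1 unit apart in the chromosome 5 region differed by a median of 6.45-fold in depth over 108 pairs, and by a median of 1.69 points in level.

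**Figure D4:**
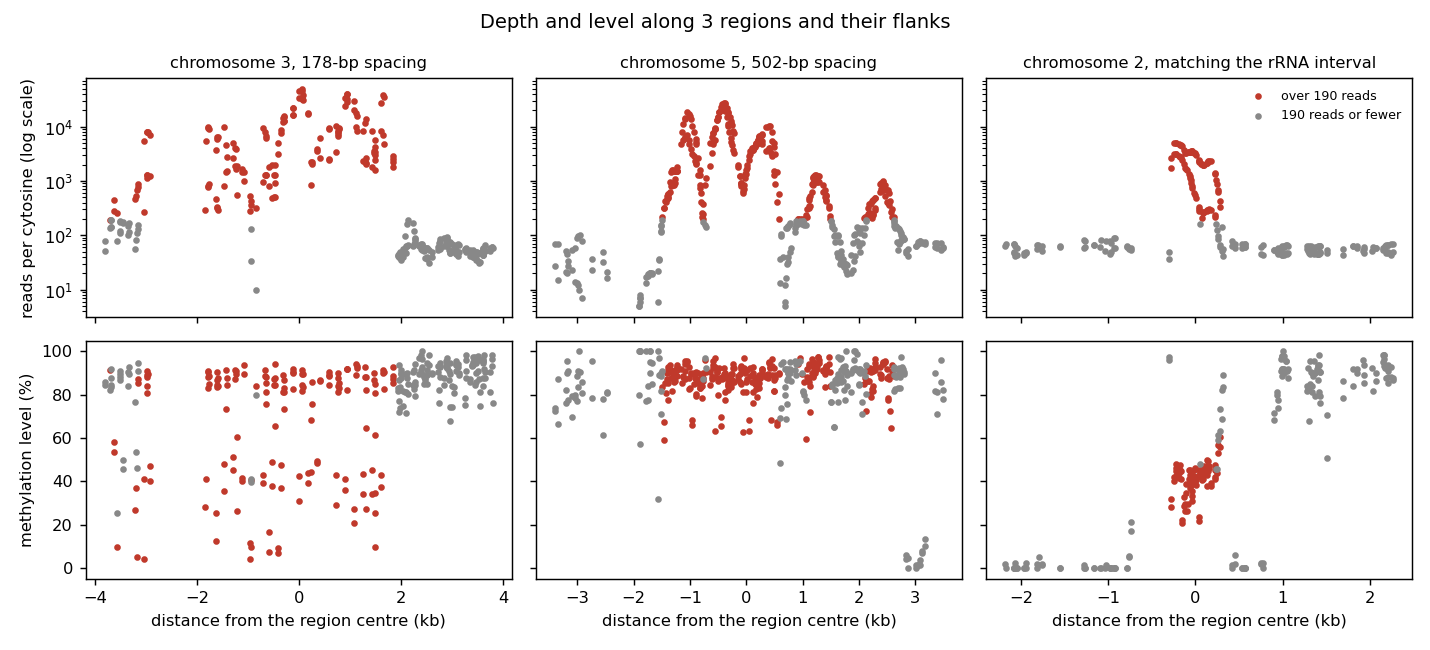
Reads per cytosine (upper panels, log scale) and methylation level (lower panels, %) along 3 regions with 2000 bp on either side, against the distance from the region centre (kb), with cytosines over 190 reads in red and the others in grey. The chromosome 3 region has a band of cytosines near 40% under a band near 85%, the chromosome 5 region has waves of depth of up to 27687 reads at an even level, and the chromosome 2 region is a narrow pile at 40.5%.

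Of the 7 regions with other distances, 6 had a level above 75%. On chromosome 2, chr2:5198772-5200320 and chr2:5202878-5203783 had distances of 747 and 746 bp, 70 and 46 members, and levels of 89.92% and 89.98%, against 89.95% and 90.57% in their flanks. The adjoining region chr2:5204592-5204744, with only 8 CpGs, all of them at 746 bp, had the highest level of the regions with at least 10 members, 91.5%. The pseudogenes AT2G12690 and AT2G12695 were the nearest loci. Further high levels in regions with at least 10 members were 90.3% in chr5:11990834-11991155, nearest to the pseudogene AT5G32358, and 90.2% in chr3:14212516-14212912, 3 bp from the RNA locus AT3G00670.

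Matches of CpG spacing, in runs of 11 CpGs, linked the regions to other places of the genome. Of the 1677 runs in the regions, 595 or 35.5% recurred at another place in either orientation, against 3.85% of the nuclear runs outside the regions. That background is the whole nuclear genome and not the gene-poor blocks in which most regions lay. The part of place in the difference was not tested. Such a run was found in 42 of the 66 regions long enough to hold one. The share was 64.8% in the regions with 495 to 510 bp and 9.32% in the 178-bp regions. Within the same region, 304 runs had their match, and 112 runs matched the left-out rRNA intervals.

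Those 112 runs came from 3 regions. The nuclear rRNA genes of Arabidopsis form the nucleolus organisers at the ends of chromosomes 2 and 4, in which only a part of the copies is transcribed and many of the others are methylated. The region chr2:7190948-7191516 lay on the arm of chromosome 2 in the protein-coding locus AT2G16586, with 81 members, a median of 2029 reads and a level of 40.5%. It matched chr3:14196943-14197360 in 25 runs. The matching stretch had a level of 40.5% at a median of 2209 reads on chromosome 2, and of 35.6% at a median of 10581.5 reads in the left-out interval. It also matched chr2:2972-3499 in 22 runs, and there the difference ran the other way, with 40.9% at a median of 1836.5 reads in the region and 44.9% at a median of 3355.5 reads in the left-out interval of chromosome 2. At 2 shorter matches of 2 runs each, the level was 38.9% in the region, against 36.4% in the match on chromosome 2 and 30.6% in that on chromosome 3. Over the 20 CpGs of the printed pair, the copy on the arm of chromosome 2 was higher than that on chromosome 3 at every CpG, by 0.22 to 5.18 points (median 1.62), and the levels rose and fell together (Pearson r = 0.97 across 20 CpGs of the pooled table). At offset 90, the CpG with the lowest level in both, the level was 21.7% in the region and 21.5% in the match, and at offset 16, the highest in both, it was 47.3% and 46.1%.

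A second region near this level, chr5:3253117-3253289 on the arm of chromosome 5, had a median of 2543 reads, the third highest, and a level of 40.3%, against 5.71% in its flanks. It lay at the edge of the protein-coding gene AT5G10340, of whose 118 CpG cytosines 28 were members, and the other cytosines of that gene had a level of 5.09%. No run of 11 CpGs recurred in this region. Runs of 8 CpGs recurred in 66 of the 80 regions that held one, and their share outside the regions was not counted. In this region, 1 run of 8 CpGs (chr5:3253210-3253289) matched chr2:2278-2357 and chr3:14196245-14196324 in the reverse orientation with the same letters. The level of these 8 CpGs was 41.8% on chromosome 5, against 38.3% and 35.2% at the matches. Among the regions with at least 10 members, these 2 were the only ones with a level between 25% and 60.9%, the lowest level of the 178-bp regions.

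The other regions with runs of the left-out intervals adjoined those intervals, so their flanks lay mostly on the other side. The region chr2:10034-10358 began just beyond the end of the interval of chromosome 2, overlapped the RNA locus AT2G00340, and had 68 members, a median of 2749 reads and a level of 80.4%, against 89.8% in its flanks. Its stretch chr2:10180-10337 matched chr3:14193736-14193893 and chr3:14204145-14204302 in 11 runs each. The level was 71.4% at a median of 2522.5 reads in the region, against 56.7% at 77 reads and 65.5% at 271.5 reads in the matches. At chr2:10248-10358, matched in 5 runs each by chr3:14193958-14194068 and chr3:14204367-14204477, it was 61.4%, against 49.7% and 46.7%. The region chr3:14191981-14192674 began just before the interval of chromosome 3, at the RNA locus AT3G00650, and had 62 members, a median of 254.5 reads and a level of 2.88%, against 57.8%. Of its 85 CpGs, 81.2% had another CpG 113 bp away, and 65 runs matched chr3:14194645-14195339, where the level was 3.48% at a median of 1108.5 reads. Shorter stretches of it matched chr2:1081-1372 in 29 runs, with 3.83% in the region and 7.43% in the match, and chr2:1111-1452 in 21 runs, with 4.13% in the region and 7.57% in the match. The stretch with 21 runs also matched chr3:14195078-14195419, at 4.30%. Among all regions with at least 10 members, 4 had a level below 25%, and this was the one with tandem CpGs.

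**Figure D5:**
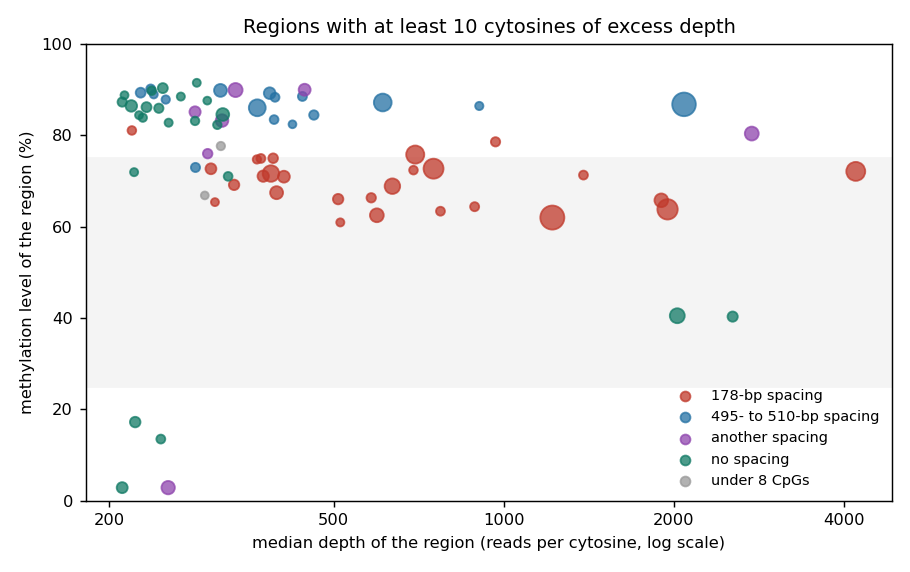
Methylation level (%) of the 75 regions with at least 10 members against their median depth (reads per cytosine, log scale), with point area growing with the number of members, colours for the distance at which CpGs recurred and grey for levels from 25% to 75%. The 178-bp regions lie between 60.9% and 81.1% at all depths, and the 495- to 510-bp regions mostly above 80%. The region at 40.5% matched the left-out rRNA intervals in runs of 11 CpGs, and that at 40.3% only in a run of 8 CpGs.

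The other 3 regions of low level lay on the arms. The region chr2:6243435-6245298 had 36 members with a median of 211 reads and a level of 2.88% (2.53% to 3.28%), against 13.3% in its flanks, and reached into XTH10, which encodes a xyloglucan endotransglucosylase/hydrolase, a family of cell wall enzymes. Of the 74 CpG cytosines of XTH10, 14 were members, and the gene had a median depth of 165 reads. The region chr2:52343-53197 had 32 members with a median of 222.5 reads and a level of 17.2%, against 15.5%, and ended 72 bp from the protein-coding locus AT2G01045. Its members were mixed, with 24 below 25% and 4 above 75%, and had levels of 0.236% on the plus strand and 29.4% on the minus strand. The region chr3:7104313-7104572 had 18 members with a median of 247 reads and a level of 13.5%, against 6.72%, and covered AT3G20365, a pseudogene with a tyrosine tRNA among its synonyms, whose 14 CpG cytosines were all members. Only the 2 regions of chromosome 2 were long enough to hold a run of 11 CpGs, and none of their runs recurred.

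Outside the gene-poor blocks lay 28 regions in all, 22 of which overlapped a locus, and their levels ranged from 0.225% to 94.2%. Loci in these regions that fall outside the rule for named loci were chosen after their values were seen. On chromosome 4, a region of 17 members at 71.0%, against 15.97% in its flanks, lay in the protein-coding gene AT4G20700, whose other cytosines had a level of 23.4%. All 17 members were on the minus strand. On chromosome 5, small regions lay in the cluster AT5G39150 to AT5G39190 (GER2), of which GER2 encodes a germin-like protein. One of them, in AT5G39160 and AT5G39170, had 9 members at 20.9%, against 87.5% in its flanks, with 7 members below 25% and 2 above 75%. The one with the highest level, in the pseudogene AT5G39155, had 5 members, all on the minus strand, at 94.2%, against 91.1%. On chromosome 3, 6 members in MEE38, named for an arrest of embryo development, had 48.4%, against 91.96% in their flanks. These 6 members were also all on the minus strand. On chromosome 1, the pseudogenes AT1G43740, AT1G43745, AT1G43750 and AT1G43755, just inside the gene-poor block, held 8, 23, 14 and 15 members with gene-wide levels of 82.1%, 81.0%, 81.7% and 83.8%.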

How the data were processed

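Reads were quality-filtered by the authors (Trimmomatic) and mapped to TAIR10.1 by Bismark with Bowtie 2. Only uniquely mapped reads were kept and duplicates were removed, so reads equal to several reference copies are missing and the depth at a repeat is what its distinguishable reads give. The authors deposited raw counts of methylated and unmethylated reads per CpG cytosine and strand, pooled over libraries and without normalization. The median of 58 reads at a covered nuclear cytosine sets the precision at single sites, so levels (methylated over all calls) were read over regions with Wilson intervals. Loci came from the RefSeq table of TAIR10.1, without strands or exons. The members, lists and classes were chosen with earlier results of these data known. Named loci overlap or lie nearest to the 10 regions with the most members, the 5 with the highest median depth, and, among regions with at least 10 members, the 5 lowest and the 5 highest levels. Other named loci are marked. The work was done in Python 3.11.15 with pandas 2.3.3 and numpy 2.4.6 (Wilson intervals from scipy 1.17.1, figures from matplotlib 3.10.9) and its steps were tested on simulated data. The threshold, the joining distance, the strands, the intervals left out, and the definitions of level, block and run length were varied.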

Additional observations from a re-analysis of the deposited data

How the results depend on the processing

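No paired analysis was possible because the table is 1 pooled sample. The rule's own limits moved what they define. With both rRNA intervals kept in, 5557 cytosines passed and their level was 45.1%. Joining within 100 bp gave 473 regions, and asking for at least 5 cytosines gave 111, against 171. The median depth was 303 reads at a threshold of 150 and 618.5 reads at 250. The level of the cytosines with excess depth was 72.5% as a mean of the cytosines' own levels, 72.43% at a threshold of 150 reads, 72.38% at 250 and 72.4% without the region with the most reads, each outside a counting interval that is very narrow at this depth. That of the other nuclear cytosines was 25.17% at a minimum of 10 reads and 27.5% as a mean of their own levels. Intermediate levels made up 35.6% when taken from 20% to 80%, 24.6% at 150 reads and 31.6% at 250. At 250 reads, 32 regions overlapped a locus, against 52. Recurring runs were found in 66 regions with runs of 8 CpGs and in 23 with runs of 15, against 42. Outside the gene-poor blocks the level was 40.3% without the region with most calls and 45.3% as a mean of the cytosines' own levels, against 61.95%, both added once the values were known. The other 12 of 32 alternatives kept their value within 1.5 times or within the counting interval. The depth, which chose the cytosines, limits any reading of copy number, and 1 pooled table without replicates allows no error between plants.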
